A study of Mus musculus with 8 samples.

Results

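Ecrg4(71-132), a recombinant protein in which residues 71 to 132 of Ecrg4 are fused to an antibody Fc fragment, was set against Fc, the same carrier alone, in primary microglia. The comparison was chosen by treatment label and takes 4 of the 8 one-colour Agilent arrays of the study, 2 for Ecrg4(71-132) and 2 for Fc. The cells came from C57BL/6 mice and had 3 h at 20 µg/ml of either protein, and the other 4 arrays hold PBS-treated cells and cells given Fc-fused Ecrg4(133-148). Array titles number the arrays of each treatment as set 1 and set 2, so each Ecrg4(71-132) array was paired with the Fc array of its set. The labels do not say whether the sets were separate cultures, animals or isolations, so p-values measure only the spread between these samples.

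Ecrg4 is a secreted precursor protein that is cut into smaller peptides. The Fc fragment is the constant end of an antibody and is itself a ligand of the Fc gamma receptors that microglia carry, and Fc alone is the carrier control at the same dose. Microglia are the resident macrophages of the brain. Danger and microbial signals act on them through receptors that release NF-kB from its inhibitors, and NF-kB together with AP-1 factors switches on cytokines, chemokines, prostaglandin synthesis and, soon after, genes that end the response. Activated macrophages also reduce transcripts of their resting state, among them purinergic receptors and lineage factors.

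Signals are given as log2 values with the array's 75th percentile at 0, and a log2 fold is Ecrg4(71-132) minus Fc within a set. The 75th percentile of intensity was 625.8 and 611.9 on the Ecrg4(71-132) arrays and 809.3 and 494.6 on the Fc arrays, for sets 1 and 2, so it moved in opposite directions in the sets. Each array had 24214 to 29439 probes well above background, and no spot was saturated. The sets differed in a similar way in every treatment: the difference between sets correlated at 0.783 to 0.862 over the 6 pairs of groups. The first principal component over all 8 arrays held 71.5% of the variance. Folds spread more in set 2 than in set 1, with an SD over 19120 genes of 0.678 and 0.335. Across these genes the folds of the sets correlated at 0.404, which is a description, since genes are not independent replicates. Summed linear signal of 12 microglia and macrophage markers, in units of the 75th percentile, was 822 and 835 on the Ecrg4(71-132) arrays and 869 and 944 on the Fc arrays. Csf1r, the receptor for the microglial survival factor, had log2 signals of 8.07 and 7.90 with Ecrg4(71-132) and 8.16 and 8.17 with Fc. Tmem119, a marker that separates microglia from other macrophages, was dim, at -2.06 and -3.82 with Ecrg4(71-132) and -2.06 and -4.30 with Fc, and was well above background on 1 of the 2 Fc arrays.

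Ecrg4(71-132)-treated microglia had more transcript of secreted inflammatory mediators in both sets, led by Il1b, Tnfsf15, Il1a, Cxcl2, Cxcl3, Il6 and Tnf, together with Ptgs2 and Serpinb2. For the 15 genes that were highest in both sets the excess ran from 3.08-fold to 8.03-fold in set 1, and it was larger in set 2 for 14 of these. A smaller group was lower in both sets, including the pro-apoptotic gene Bmf, the G-protein regulator Rgs2 and the lysophosphatidylserine receptor Gpr34. Of 19120 genes tested, 89 (0.465%) were over 2-fold higher in both sets and 51 (0.267%) were over 2-fold lower in both. Among the 17108 genes well above background on all 4 arrays the counts were 61 (0.357%) higher and 14 (0.0818%) lower. Limma called no gene at an adjusted p of 0.05, 0 higher (0%) and 0 lower (0%), and the smallest adjusted p was 1, so every gene named below has an adjusted p of 1. At an unadjusted p under 0.05 the fit held 349 genes higher and 295 lower, together 644 of 19120, a share below 0.05. With the set as a block the count of calls was again 0 in each direction (0%), and the smallest adjusted p was 0.177. At an unadjusted p under 0.05 this fit held 1433 higher and 2126 lower, together 3559 of 19120, a share above 0.05. Leaving out the Ecrg4(71-132) array of set 1 from the blocked fit gave 482 calls, a value that rests on the single Ecrg4(71-132) array of set 2. Words such as higher and lower therefore give the order of the measured signals in these 4 arrays.

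**Figure D1:**
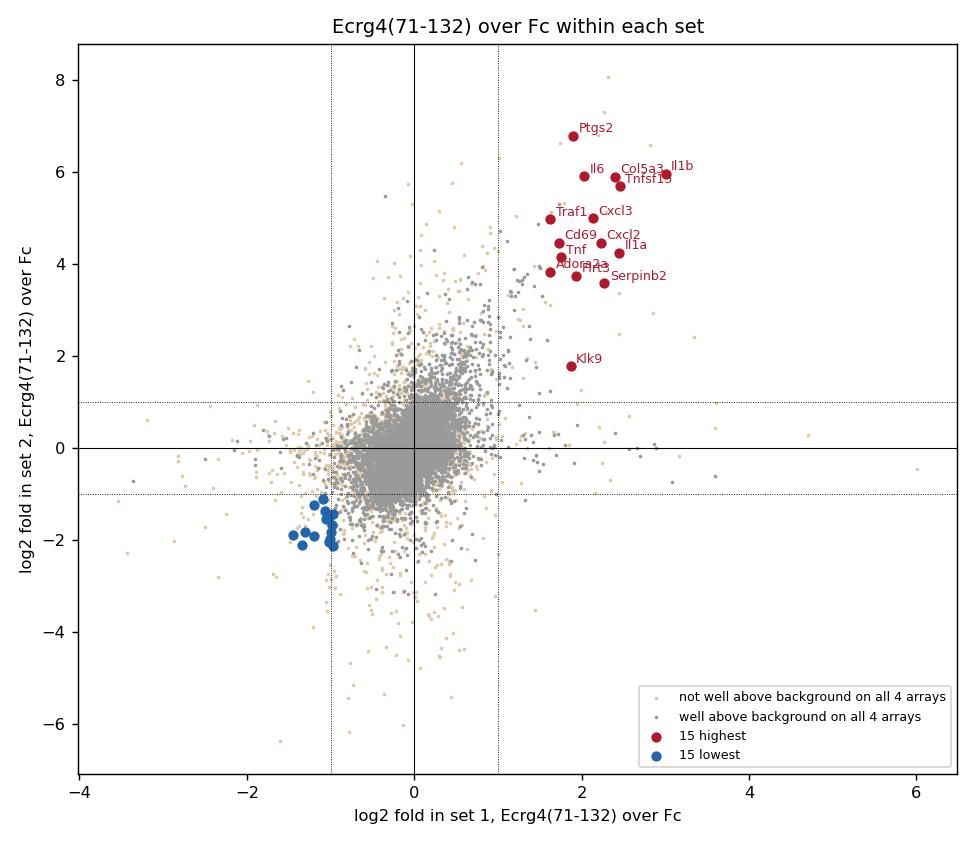
Log2 fold of Ecrg4(71-132) over Fc in set 1 (horizontal axis) and set 2 (vertical axis), 1 point per gene tested, with dotted lines at 2-fold. The 15 highest genes lie far along both axes, with Il1b at 3.01 and 5.95, while the 15 lowest lie between -0.97 and -1.45 in set 1.

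Several of the highest genes have well-known NF-kB or AP-1 sites, so the 250 bases before the RefSeq transcription start (GRCm38.p6) were searched on both strands. Each RefSeq start counts as a promoter, so a gene can have several. Of the 15 highest genes 13 had an entry, giving 14 promoters, and of the 15 lowest 10 had an entry, giving 16. The NF-kB consensus was in 4 of the 14 (28.6%), belonging to Cxcl2, Cxcl3, Il6 and Klk9, and in 0 of the 16 (0%). Of the 47 genes with a symbol over 2-fold higher in both sets and well above background on all 4 arrays, 35 had an entry. The consensus was in 6 of their 43 promoters (14%). It was in 6.09% of 12825 promoters of all genes tested with a symbol and in 5% of all 32851 promoters of the table. The AP-1 motif TGANTCA was in 4 of 14 (28.6%), belonging to Il1a, Il6 and Serpinb2, in 0 of 16 for the lowest genes, in 11 of the 43 (25.6%), in 4.79% of promoters of genes tested and in 6.75% of all promoters. The cyclic AMP motif TGACGTCA was in 0 of 14 and 0 of 16, against 2.53% of promoters of genes tested and 1.55% of all. The promoters below are shown because their genes are among the highest and hold a match, which capitals mark.
Cxcl2, chr5:90903649-90903898, plus strand, NF-kB match 97 bases before the start: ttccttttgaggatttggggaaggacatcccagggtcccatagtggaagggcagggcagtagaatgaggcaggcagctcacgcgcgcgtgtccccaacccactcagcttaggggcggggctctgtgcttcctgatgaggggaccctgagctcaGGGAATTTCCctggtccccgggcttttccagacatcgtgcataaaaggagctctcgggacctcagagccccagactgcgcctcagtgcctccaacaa
Cxcl3, chr5:90785851-90786100, plus strand, NF-kB match 73 bases before the start: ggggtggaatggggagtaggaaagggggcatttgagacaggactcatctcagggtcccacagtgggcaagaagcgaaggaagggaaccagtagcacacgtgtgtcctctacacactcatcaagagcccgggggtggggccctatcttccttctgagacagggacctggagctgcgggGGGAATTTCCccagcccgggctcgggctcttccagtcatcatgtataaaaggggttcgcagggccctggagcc
Il6, chr5:30012864-30013113, plus strand, AP-1 match 249 and NF-kB match 44 bases before the start: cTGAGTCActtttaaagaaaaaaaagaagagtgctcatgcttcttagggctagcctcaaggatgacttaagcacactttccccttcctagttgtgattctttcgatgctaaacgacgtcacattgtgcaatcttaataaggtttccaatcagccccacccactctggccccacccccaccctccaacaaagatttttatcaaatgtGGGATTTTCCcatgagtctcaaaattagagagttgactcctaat
Il1a, chr2:129309973-129310222, minus strand, AP-1 match 12 bases before the start: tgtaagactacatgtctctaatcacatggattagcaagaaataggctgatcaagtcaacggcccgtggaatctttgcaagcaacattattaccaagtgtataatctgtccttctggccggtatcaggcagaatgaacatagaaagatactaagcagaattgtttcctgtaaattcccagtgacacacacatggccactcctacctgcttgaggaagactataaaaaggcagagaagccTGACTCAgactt
Serpinb2, chr1:107511173-107511422, plus strand, AP-1 match 94 bases before the start, with its other RefSeq promoter overlapping this window and holding the same match: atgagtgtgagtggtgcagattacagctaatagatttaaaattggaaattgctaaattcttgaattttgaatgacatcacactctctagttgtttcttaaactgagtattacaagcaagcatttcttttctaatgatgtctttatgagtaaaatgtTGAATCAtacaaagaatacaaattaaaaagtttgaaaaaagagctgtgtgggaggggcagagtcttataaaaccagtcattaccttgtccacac
Cxcl2 and Cxcl3, which encode neutrophil-attracting chemokines, carry the identical match GGGAATTTCC, and Il6 carries GGGATTTTCC. A match describes these letters and is not evidence that a factor was bound.

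Il1b, the secreted interleukin 1 beta precursor, had log2 signals of 5.67 and 8.57 with Ecrg4(71-132) and 2.66 and 2.62 with Fc in sets 1 and 2. Both Ecrg4(71-132) arrays lay above both Fc arrays, an order shared by 10.6% of all genes tested, and the Fc arrays nearly coincided. Choosing genes by their within-set folds favours this order, here and below, so the share is no measure of rarity. Il1b had a mean log2 fold of 4.48 ± 1.31 (SE, limma without the set, spread pooled over all 8 arrays). With the set as a block the SE was 1.13. Later values after ± also come from the fit without the set. Il1a, the sister cytokine, had 3.18 and 5.43 with Ecrg4(71-132) and 0.73 and 1.19 with Fc, again without overlap. Its mean fold was 3.35 ± 1.02, and with the set as a block the SE was 0.62. Tnf, the prototype tumour necrosis factor, had 6.07 and 7.33 with Ecrg4(71-132) and 4.32 and 3.19 with Fc. Its within-set log2 folds were 1.75 and 4.14, and part of the larger one lies in a lower Fc signal in set 2. Il6, which encodes a cytokine of fever and the acute phase, had 5.12 and 5.66 with Ecrg4(71-132) and 3.09 and -0.25 with Fc. The Ecrg4(71-132) arrays stood close together, and the Fc arrays differed by over 3 log2 units, so most of the gap between its folds of 2.03 and 5.91 comes from the Fc side. Tnfsf15, a ligand of the tumour necrosis factor family, showed the reverse, with 1.23 and 6.36 with Ecrg4(71-132) and -1.23 and 0.67 with Fc.

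The cytokine list held 22 genes, of which 17 were tested. Of these, 14 were higher in both sets and 0 lower. Over all genes tested, 28.5% were higher and 36.4% lower in both sets, the shares to set beside every list count below. Median folds of the list were 1.43 in set 1 and 3.01 in set 2, against -0.01 and -0.03 over all genes. The 14 members measured on all 4 arrays had 11 higher and 0 lower, with medians of 1.16 and 2.32. Inhba, which encodes the activin A subunit, had 3.31 and 7.15 with Ecrg4(71-132) and 1.88 and 3.64 with Fc. Il1rn, the antagonist of the interleukin 1 receptor, had 1.37 and 3.84 with Ecrg4(71-132) and -0.08 and 2.07 with Fc. It was thus higher beside the agonists it opposes, by 1.46 and 1.77. Csf2 and Csf3, which encode growth factors of granulocytes and macrophages, were 2.82 and 1.63 higher in set 1. In set 2 they had 0.77 and -0.55 with Ecrg4(71-132) and -5.82 and -5.69 with Fc, and these Fc signals lay below the lowest signal well above background on that array, -4.16, so no fold is given. Il18 and Ebi3 stood near 0, with folds of -0.00 and 0.02 for Il18 and -0.00 and 0.21 for Ebi3.

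Chemokines showed the same order with more differences between sets: 12 of 18 were higher in both and 0 lower, with median folds of 0.82 and 1.06. Cxcl3 had 3.72 and 6.03 with Ecrg4(71-132) and 1.58 and 1.04 with Fc. Cxcl2 had 3.89 and 5.67 with Ecrg4(71-132) and 1.66 and 1.21 with Fc. Both chemokines thus had all Ecrg4(71-132) values above all Fc values, as in 10.6% of all genes tested, an order that their choice by high folds favours. Their mean folds were 3.56 ± 0.96 and 3.34 ± 0.92 (SE). The monocyte attractant Ccl7 was 1.5 and 1.19 higher, so its larger fold was in set 1. Ccl5 differed in direction, at 1.22 and 4.05 with Ecrg4(71-132) and 1.56 and -1.43 with Fc. The interferon-responsive Cxcl10 had folds of 1.19 and 3.88, and its Fc signal was 6.60 in set 1 and -0.75 in set 2. Ccl6 and Ccl9, chemokines of the CC family, stood near Fc, with folds of 0.28 and -0.34 and of 0.34 and 0.12.

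**Figure D2:**
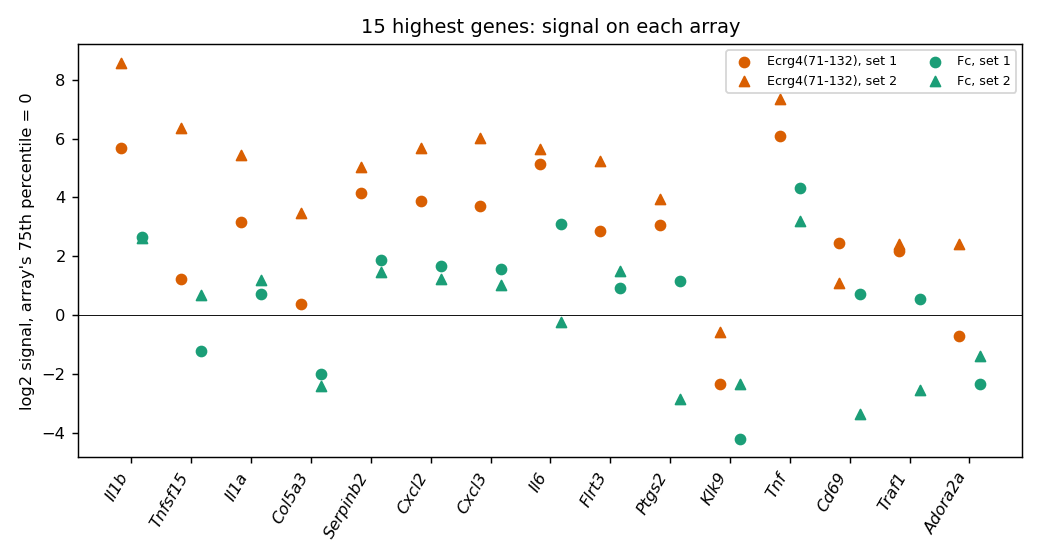
Log2 signal (75th percentile of the array at 0) of the 15 highest genes on each array, Ecrg4(71-132) in orange left of Fc in green, with circles for set 1 and triangles for set 2. Il1b reaches 5.67 and 8.57 with Ecrg4(71-132) beside 2.66 and 2.62 with Fc, while Ptgs2 and Il6 show their widest gap in the Fc arrays.

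Ptgs2, the inducible cyclooxygenase that starts prostaglandin synthesis, had 3.05 and 3.95 with Ecrg4(71-132) and 1.15 and -2.83 with Fc. Its Ecrg4(71-132) arrays differed by less than 1 log2 unit, and the within-set folds of 1.90 and 6.78 differ mainly because Fc signal was low in set 2. The rest of the pathway did not follow it: 8 of 20 eicosanoid genes tested were higher in both sets and 8 lower, with medians of 0.01 and -0.13. On the higher side Pla2g7 had folds of 0.34 and 0.46, Pla2g4a 0.15 and 0.21, and the synthase-related gene Ptges3 0.11 and 0.19. Ptgds had 1.08 and 0.64 but was well above background on only 1 of the 2 arrays of each group. Examples of the lower members follow. Hpgd, which inactivates prostaglandins, was -2.83 and -4.35 with Ecrg4(71-132) and -1.53 and -2.66 with Fc, and was well above background on 1 of the 2 Ecrg4(71-132) arrays. Pla2g15, a lysosomal phospholipase, had folds of -0.49 and -1.04, and Hpgds, the haematopoietic prostaglandin D synthase, had -0.20 and -0.92. Ltc4s, which makes leukotriene C4, had -0.21 and -0.62, and the constitutive Ptgs1 had -0.14 and -0.46.

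Serpinb2, an intracellular inhibitor of plasminogen activators, had 4.16 and 5.03 with Ecrg4(71-132) and 1.89 and 1.45 with Fc. Its mean fold of 2.92 ± 0.37 (SE) had the smallest error of the 15 highest genes in the fit without the block. With the set as a block its SE was 0.35, and Klk9 had the smallest of these genes, 0.11. F3, which encodes tissue factor, was 0.92 and 1.60 higher. Plau, which encodes urokinase, had folds of -0.09 and -0.88, while its receptor Plaur had 0.65 and 0.48. Across the list 6 of 15 genes were higher in both sets and 6 lower. Among matrix proteases and their inhibitors 13 of 15 were higher in both sets and 1 lower, with medians of 0.34 and 0.29. Over the 12 well above background on all 4 arrays the medians were 0.16 and 0.22. Mmp13, an interstitial collagenase, was 0.87 and 1.22 higher, Mmp14, a membrane-bound protease, was 0.58 and 1.74 higher, and the inhibitor Timp1 was 0.79 and 1.27 higher.

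Genes that restrain NF-kB were higher almost without exception: 18 of 19 in both sets and 1 lower, with medians of 0.41 and 1.46. Traf1, an adaptor of tumour necrosis factor receptors, had 2.19 and 2.42 with Ecrg4(71-132) and 0.56 and -2.55 with Fc. Nfkbiz, a nuclear inhibitor-like protein that tunes NF-kB target choice, had 0.71 and 0.67 with Ecrg4(71-132) and -0.68 and -1.70 with Fc. In both genes the Ecrg4(71-132) arrays nearly coincided and lay above both Fc arrays, an order found in 10.6% of all genes tested. The choice of these genes by high folds favours this order. The deubiquitinase gene Tnfaip3 had folds of 0.72 and 2.74, the cytokine signal inhibitor Socs3 had 1.03 and 2.40, and the RNase gene Zc3h12a had 0.90 and 2.10. Nfkbia, the canonical inhibitor, was 0.41 and 1.17 higher. Cyld, another deubiquitinase, was the member that was lower, by -0.31 and -0.46.

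Of the factors themselves, 12 of 17 NF-kB, IRF and STAT genes were higher in both sets and 3 lower. Nfkb1 and Nfkb2, the precursors of p50 and p52, had folds of 0.52 and 1.94 and of 0.26 and 2.01. Irf8, a lineage factor of microglia, had -0.21 and -0.75. Immediate-early genes were higher in 13 of 22 and lower in 3. Fosl1, an AP-1 subunit, led them by the smaller fold, at 1.07 and 1.80, whereas Fos itself had -0.23 and -0.69 and Atf3 had 0.09 and -0.05. Of the phosphatases that switch off MAP kinases 9 of 15 were higher and 4 lower, with Dusp2 at 0.60 and 1.37 and Dusp7 at -0.44 and -1.1. Toll-like receptor genes had medians of 0.03 and 0.06, with 9 of 20 higher and 5 lower. The co-receptor Cd14 stood out in set 2, with 6.06 and 6.72 with Ecrg4(71-132) and 5.44 and 3.94 with Fc.

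Interferon-stimulated genes were higher by a small amount: 23 of 25 in both sets and 0 lower, with medians of 0.38 and 0.31. Ifit1, an antiviral RNA-binding protein, had 3.81 and 0.39 with Ecrg4(71-132) and 3.09 and -2.05 with Fc. The difference between sets exceeded that between treatments, so the groups overlapped. Gbp5, a guanylate-binding protein, had folds of 0.72 and 3.57, and Rsad2, the antiviral viperin, had 0.52 and 2.18.

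Membrane receptors and adhesion proteins were also among the highest. Cd69, an early activation lectin, had 2.46 and 1.1 with Ecrg4(71-132) and 0.74 and -3.37 with Fc. Flrt3, a leucine-rich adhesion protein, had 2.86 and 5.23 with Ecrg4(71-132) and 0.92 and 1.49 with Fc. Its 3 probes gave set 1 folds of 1.94, 1.94 and 1.89 and set 2 folds of 3.56, 3.74 and 3.78. Adora2a, a receptor for adenosine, had -0.71 and 2.42 with Ecrg4(71-132) and -2.33 and -1.40 with Fc. Adora2b, a second adenosine receptor, was 0.56 and 1.79 higher. Of 14 chemoattractant receptors 8 were higher and 4 lower in both sets. The platelet-activating factor receptor Ptafr had 0.53 and 2.08 and the complement receptor C5ar1 had 0.78 and 1.37, whereas Cxcr4 had -0.92 and -0.88 and C5ar2 had -0.36 and -1.16. Of 20 adhesion genes 12 were higher and 7 lower, with Icam1, a ligand of leukocyte integrins, at 0.48 and 2.04.

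Col5a3, a fibrillar collagen chain, had 0.39 and 3.48 with Ecrg4(71-132) and -2.01 and -2.41 with Fc, so it was above Fc in both sets. Col5a3 belongs to the list of fibroblast and meningeal markers, whose other members did not share its size. Of the 6 members tested, 5 were higher in both sets and 1 lower. Col1a2 had folds of 0.03 and 0.07, Dcn 0.27 and 0.47, and Col1a1 -0.06 in set 1, while in set 2 it was not well above background on either array. The summed linear signal of that list was 397 and 317 with Ecrg4(71-132) and 346 and 280 with Fc. Most of each sum came from Fn1, with log2 signals of 8.51 and 8.25 with Ecrg4(71-132) and 8.31 and 8.13 with Fc. The sums therefore mainly describe that gene, and the part of other cells in the Col5a3 signal was not tested. Of 8 astrocyte markers tested, 4 were higher in both sets and 0 lower, but those 4 were each well above background on 1 of the 2 Fc arrays. The 3 measured on all 4 arrays gave 0 higher and 0 lower in both sets. The list had summed signals of 33.8 and 72.5 with Ecrg4(71-132) and 30.6 and 76.9 with Fc. Most of each sum came from Aldoc, with log2 signals of 4.35 and 5.91 with Ecrg4(71-132) and 4.29 and 5.97 with Fc. In contrast, the 4 markers that were higher in both sets (Slc1a2, Slc1a3, Aqp4 and S100b) were each dimmer in set 2 than in set 1 with either treatment. Gfap had a fold of 0.45 in set 1 and was not well above background on either array of set 2. Of the remaining marker lists, 7 oligodendrocyte, 3 endothelial, 3 neutrophil, 3 lymphocyte and 2 neuron markers of 10 each were tested. Their higher and lower counts were 2 and 2, 0 and 1, 2 and 1, 0 and 1, and 1 and 1. Camp, a neutrophil granule peptide, was 0.90 and 3.21 higher, while S100a8, another neutrophil gene, had 0.06 and 0.45. Fewer cells of a type and less RNA per cell cannot be told apart in such bulk samples.

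Klk9, a kallikrein-family protease, completed the 15 highest, with -2.32 and -0.58 with Ecrg4(71-132) and -4.19 and -2.35 with Fc. Its folds of 1.87 and 1.77 were alike in the sets, but its signal was dim throughout. The threshold of 2-fold divided close neighbours: Phlda1 had 1.01 and 1.38, and Il1f9, just outside, had 1.0 and 2.84. Ereg and Areg, ligands of the epidermal growth factor receptor, were 2.31 and 1.01 higher in set 1. In set 2 they had 3.46 and 1.23 with Ecrg4(71-132), against Fc signals of -4.61 and -5.07 that were not well above background. The ligand list as a whole was higher in 9 of 15 and lower in 2, and over the 12 measured on all 4 arrays it was higher in 6 and lower in 2. Another 7 of the 19120 genes tested, 4 of them with a symbol, were well above background on both Ecrg4(71-132) arrays and on no Fc array. Such genes give only a bound. Averaged over both sets, Lad1 was at least 5.56-fold higher, and Edn1, which encodes the vasoconstrictor endothelin 1, at least 2.84-fold higher. The measured Lad1 signal was 4.89-fold higher in set 1 and 35.1-fold higher in set 2. The bounds were at least 2.22-fold higher for Grm4, a metabotropic glutamate receptor, and at least 1.78-fold higher for Sprr2e.

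Some lists of metabolic enzymes and transporters also had more members higher than lower in both sets. Of 12 nitric oxide, arginine and itaconate genes 9 were higher and 1 lower, with medians of 0.40 and 0.53. Acod1, which makes itaconate, had 7.14 and 6.31 with Ecrg4(71-132) and 6.12 and 1.58 with Fc. Nos2, the inducible nitric oxide synthase, was 0.91 and 1.04 higher, and Slc7a2, an arginine transporter, was 1.02 and 1.62 higher. Of 19 antioxidant genes 13 were higher and 3 lower. Slc7a11, the cystine importer, had 2.41 and 3.58 with Ecrg4(71-132) and 1.29 and 1.46 with Fc, and was the member furthest from Fc in both sets. Ch25h, which makes 25-hydroxycholesterol, had 6.91 and 6.60 with Ecrg4(71-132) and 5.32 and 4.26 with Fc. Its list went the other way: of 28 cholesterol and lipid genes 4 were higher in both sets and 10 lower. Nlrp3, the inflammasome sensor, had folds of 1.19 and 2.99, while 7 of 17 inflammasome and pyroptosis genes were higher and 5 lower. Glycolysis and hypoxia genes were 14 of 23 higher and 3 lower, with medians of 0.12 and 0.07, and Slc2a1, a glucose transporter, had 0.45 and 0.96.

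Fewer genes were over 2-fold lower than over 2-fold higher in both sets, 51 against 89, although at 1.5-fold the counts were 273 lower and 256 higher. The 15 with the lowest folds in both sets ran from -0.97 to -1.45 in set 1 and from -1.11 to -2.14 in set 2, so in set 1 they were 1.96-fold to 2.74-fold lower. Rgs2, which shortens signalling by Gq-coupled receptors, had 3.93 and 2.71 with Ecrg4(71-132) and 4.90 and 4.85 with Fc. Both of its probes gave this order, with folds of -0.97 and -2.14 and of -1.03 and -2.27. Among 9 regulators of G-protein signalling 6 were lower in both sets and 1 higher, with medians of -0.21 and -0.42. Rgs1 was -0.60 and -0.87, and Rgs16, the exception, was 0.90 and 2.46.

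Gpr34, a microglial receptor for lysophosphatidylserine, had 0.13 and -0.53 with Ecrg4(71-132) and 1.16 and 0.97 with Fc. Both Ecrg4(71-132) arrays lay below both Fc arrays, as in 11.2% of all genes tested, an order that its choice by low folds favours. The mean fold was -1.26 ± 0.35 (SE), and with the set as a block the SE was 0.17. Of 17 purinergic and related receptors, Gpr34 included, 10 were lower within both sets and 3 higher, with medians of -0.05 and -0.54. P2ry12, the ADP receptor of resting microglial processes, had -0.25 and -0.84, P2ry13 had -0.32 and -0.85, and the lysophosphatidic acid receptor Lpar6 had -0.54 and -1.31. Adora2a and Adora2b, described above, and P2ry2 were the 3 on the higher side. Homeostatic microglia genes were lower in both sets in 15 of 31 and higher in 4, with medians of -0.03 and -0.24. Over all genes tested 36.4% were lower and 28.5% higher in both sets. Mertk, a receptor for apoptotic cells, had -0.29 and -0.88. Gpr84, which responds to medium-chain fatty acids, was the clear exception, with 7.43 and 6.61 with Ecrg4(71-132) and 6.64 and 3.84 with Fc. Cx3cr1, the fractalkine receptor, had 4.70 and -0.74 with Ecrg4(71-132) and 4.71 and -2.36 with Fc, so it differed far more between sets than between treatments.

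**Figure D3:**
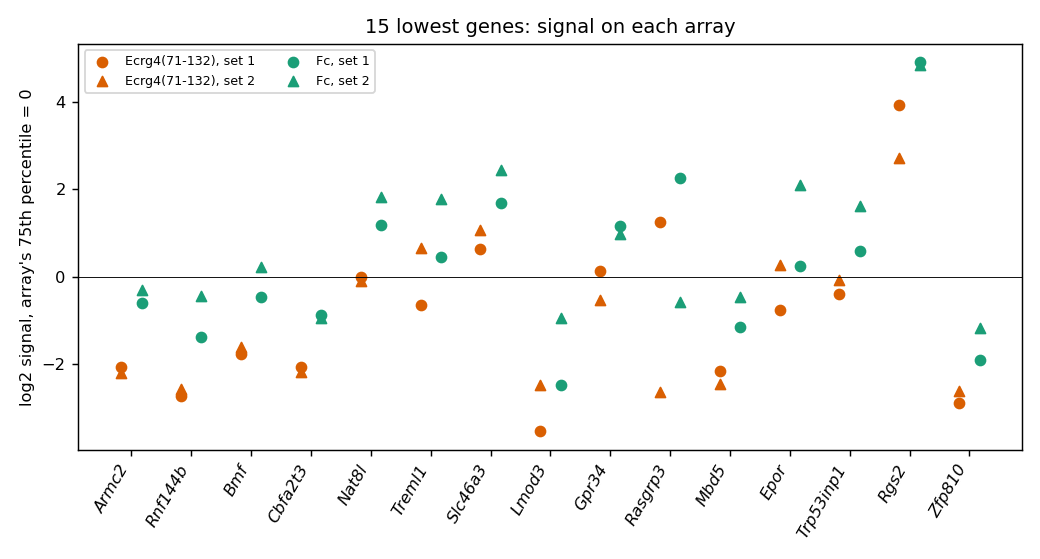
Log2 signal (75th percentile of the array at 0) of the 15 lowest genes on each array, Ecrg4(71-132) in orange left of Fc in green, with circles for set 1 and triangles for set 2. Rgs2 has 3.93 and 2.71 with Ecrg4(71-132) beside 4.90 and 4.85 with Fc, while for Rasgrp3 the sets differ more than the treatments.

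Lineage transcription factors split: 14 of 28 were lower in both sets and 11 higher, with medians of -0.07 and -0.21. Klf4, a zinc-finger factor of monocyte differentiation, had 1.66 and 1.67 with Ecrg4(71-132) and 2.19 and 3.67 with Fc. Cebpa, a factor of myeloid commitment, had 1.13 and 2.14 with Ecrg4(71-132) and 1.86 and 2.89 with Fc, and its folds of -0.73 and -0.75 were even. Mef2c had -1.67 and -4.47 with Ecrg4(71-132) and -1.29 and -1.85 with Fc, and its set 2 Ecrg4(71-132) signal was not well above background. On the higher side, Ets2 had 0.72 and 1.69, the aryl hydrocarbon receptor gene Ahr had 0.75 and 1.41, and Cebpd had 0.62 and 0.61. Cbfa2t3, a corepressor of the ETO family, had -2.07 and -2.18 with Ecrg4(71-132) and -0.87 and -0.94 with Fc. Its folds of -1.20 and -1.25 were nearly the same in the sets. Their mean of -1.22 ± 0.17 (SE) had the smallest error of the 15 lowest genes, and with the set as a block the SE was 0.11. Among 31 corepressors and chromatin regulators 12 were lower and 8 higher, beside 36.4% and 28.5% of all genes tested. The histone deacetylase gene Hdac5 had -0.46 and -0.59, and the demethylase gene Kdm6b had 0.61 and 2.38.

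**Figure D4:**
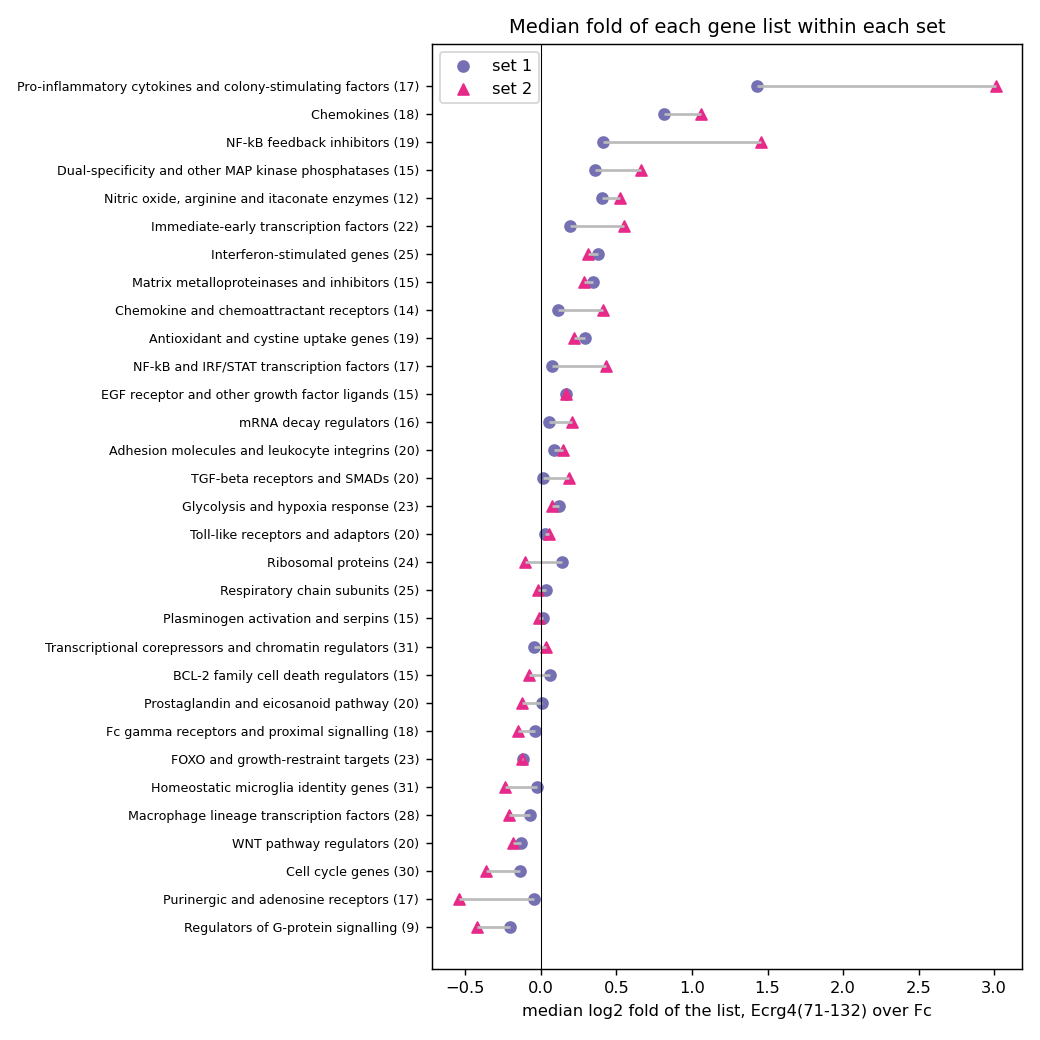
Median log2 fold of each pathway list in set 1 (circles) and set 2 (triangles), with the number of members tested in brackets, grey lines joining the sets and lists ordered by the mean of both medians. Cytokines reach 1.43 and 3.01 at the top, and regulators of G-protein signalling lie at -0.21 and -0.42 at the bottom.

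Bmf, a BH3-only protein that binds survival members of the BCL-2 family, had -1.77 and -1.61 with Ecrg4(71-132) and -0.47 and 0.22 with Fc. Both Ecrg4(71-132) arrays lay below both Fc arrays, as in 11.2% of all genes tested, an order that its choice by low folds favours. The mean fold was -1.57 ± 0.35 (SE), and with the set as a block the SE was 0.20. Bbc3, which encodes the related PUMA, was -0.52 and -0.60. Another BH3-only gene went the other way: Bcl2l11, which encodes BIM, had -0.21 and 0.91 with Ecrg4(71-132) and -1.11 and -1.38 with Fc. Of 15 family members tested 5 were lower in both sets and 4 higher, beside 36.4% and 28.5% of all genes tested. Trp53inp1, a p53-induced gene, had -0.39 and -0.08 with Ecrg4(71-132) and 0.59 and 1.61 with Fc, and its second probe gave -0.88 and -1.11.

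FOXO and growth-restraint targets were mixed, with 10 of 23 lower and 8 higher in both sets, beside 36.4% and 28.5% of all genes tested. Sesn1, a stress-induced inhibitor of mTORC1, had 2.27 and 0.76 with Ecrg4(71-132) and 3.20 and 2.01 with Fc, and the ubiquitin ligase gene Fbxo32 had folds of -1.08 and -0.70. The growth-arrest gene Gadd45b was 0.69 and 3.61 higher, and Gadd45g had -0.08 and -3.19, so members of the same family lay on opposite sides in set 2. Cell cycle genes were lower in 25 of 30 and higher in 2, by small amounts, with medians of -0.14 and -0.36. E2f2, an activator of S-phase genes, had 2.53 and 1.09 with Ecrg4(71-132) and 3.06 and 2.60 with Fc, and was the lowest member. Bub1b, of the spindle checkpoint, had -0.33 and -0.76, and Mcm6, a subunit of the replicative helicase, had -0.12 and -0.58. Mki67, a marker of cycling cells, had -0.14 and 0.18.

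WNT pathway genes were lower in 10 of 20 and higher in 1. Frat1, which binds GSK3, had -3.10 and -2.85 with Ecrg4(71-132) and -2.04 and -1.99 with Fc, and the receptor gene Fzd4 had folds of -0.58 and -1.32. Tcf7l2, a transcription factor of the pathway, had -0.39 and -1.22. Among TGF-beta receptors and SMADs 4 of 20 were lower and 9 higher. On the higher side Tgif1 had 0.24 and 0.78, and on the lower side Tgfbr2, the ligand-binding receptor, had -0.46 and -0.94. Fc gamma receptor genes and their signalling partners bear on the carrier itself: 10 of 18 were lower in both sets and 5 higher, with medians of -0.04 and -0.15. The activating receptor gene Fcgr3 had -0.04 and -0.31 and the inhibitory Fcgr2b had 0.08 and 0.22, while Fcgr1 had 0.13 and -1.65. Of mRNA decay regulators 9 of 16 were higher and 4 lower, with Zc3h12a at 0.90 and 2.10 and Zfp36l2 at -0.49 and -0.51.

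The remaining lowest genes have scattered roles. Armc2, an armadillo-repeat protein, had -2.05 and -2.20 with Ecrg4(71-132) and -0.60 and -0.31 with Fc, without overlap and with the lowest smaller fold. Rnf144b, a ubiquitin ligase, had -2.73 and -2.56 with Ecrg4(71-132) and -1.39 and -0.45 with Fc, while its second probe gave folds of -0.67 and -1.30. Nat8l, which makes N-acetylaspartate, had -0.00 and -0.09 with Ecrg4(71-132) and 1.19 and 1.83 with Fc. Slc46a3, a lysosomal transporter, had 0.63 and 1.08 with Ecrg4(71-132) and 1.70 and 2.45 with Fc. In each of these 4 genes both Ecrg4(71-132) arrays lay below both Fc arrays, as in 11.2% of all genes tested. They were chosen by low within-set folds, which favours this order. Treml1, a TREM-like receptor, had -0.64 and 0.66 with Ecrg4(71-132) and 0.44 and 1.77 with Fc, and Epor, the erythropoietin receptor, had -0.75 and 0.27 with Ecrg4(71-132) and 0.24 and 2.10 with Fc. Within each set these were lower, yet the groups overlapped because the sets differed. Rasgrp3, an activator of Ras and Rap, had 1.25 and -2.64 with Ecrg4(71-132) and 2.27 and -0.58 with Fc. The folds of the other 3 were -1.06 and -1.54 for Lmod3, an actin nucleator, -1.01 and -1.98 for Mbd5, a methyl-CpG-binding protein, and -0.97 and -1.43 for the zinc-finger gene Zfp810.

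After normexp background correction, whose offset of 50 compresses dim genes, only Bmf, Nat8l and Slc46a3 stayed over 2-fold lower in both sets, against 54 genes over 2-fold higher. The reverse, well above background on both Fc arrays and on no Ecrg4(71-132) array, held for 120 of the 19120 genes tested, 38 of them with a symbol. The lowest signal well above background was -4.40 and -4.07 on the Ecrg4(71-132) arrays and -5.14 and -4.16 on the Fc arrays. It was thus higher on the Ecrg4(71-132) array in both sets, and its part in this count was not tested. The 5 of these genes lowest in both sets are named. Averaged over both sets, Ikzf2, the zinc-finger factor Helios, was at least 3.86-fold lower, Adam4 at least 2.15-fold, Ugt1a6a at least 1.90-fold and Kiss1r at least 1.20-fold. Ikzf2 had within-set log2 folds of -1.05 and -2.87, and its second probe gave -0.58 and -2.27. For Adam4 and Kiss1r the set 1 Fc signals were -4.46 and -4.61. Both lay below the lowest signal well above background on the Ecrg4(71-132) array, -4.40, so their bounds rest on set 2. The fifth, 1700012I11Rik, was too dim for a bound.

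**Figure D5:**
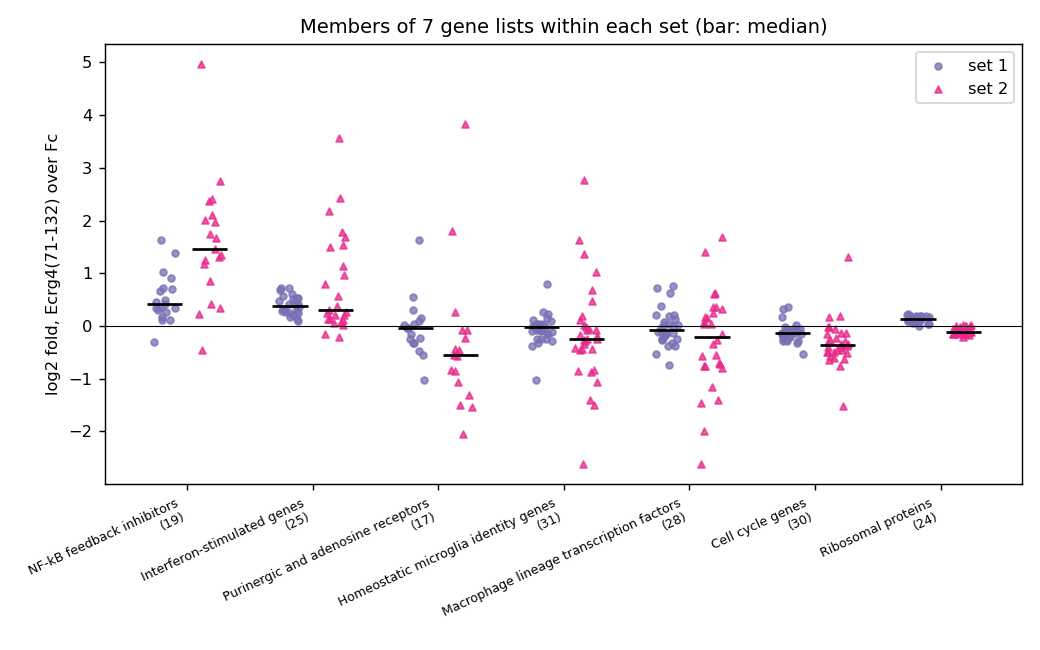
Log2 folds of the members of 7 lists in set 1 (circles, left) and set 2 (triangles, right), with bars at the medians and the number tested in brackets. NF-kB inhibitors lie mostly above 0 in both sets, cell cycle genes mostly below, and ribosomal protein genes stay near 0.

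Ribosomal protein and respiratory chain genes marked the middle of the distribution. Ribosomal medians were 0.14 in set 1 and -0.11 in set 2, with 3 of 24 higher and 1 lower in both sets. Respiratory chain medians were 0.03 and -0.02, with 6 of 25 higher and 5 lower.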

How the data were processed

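RNA of 8 samples labelled by treatment and set was measured on one-colour Agilent arrays. Scanner output, deposited per array, gives spot intensity after background subtraction, which the authors extracted, per the submitters' processing notes, with version 11.0.1.1 of Agilent Feature Extraction. Their deposited value table holds log2 values that follow the log2 scanner intensity on each array at a correlation of 1, with the constant subtracted not given in the sources used here, and it served as an alternative.

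Log2 intensity minus each array's 75th percentile was computed. Of 55681 probes 104 were left out as outlying, 28026 were named through RefSeq accessions, and 25250 were kept as well above background on both arrays of some group. Each gene was represented by its brightest kept probe, giving 19120 genes, and 12597 carry a symbol. Where a gene had several kept probes (4456 genes), their mean was an alternative. The linear model (limma 3.58.1, R 4.3.3) used all 8 arrays, estimated 1 mean for each treatment and had 4 residual degrees of freedom. A second model added the set as a block. Both used Benjamini-Hochberg adjustment and a threshold of 0.05.

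The set number in the titles pairs the arrays. The difference between sets correlated at 0.798 between Ecrg4(71-132) and Fc, and at 0.783 to 0.862 over the 6 pairs of groups. Both within-set folds are therefore given. The number of arrays limits the precision.

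Members, lists and the naming rule were all chosen with earlier results of these data known, so agreement with those results is no independent support. The rule names 4 given markers, the 15 highest and 15 lowest genes by the smaller of the within-set folds among genes measured well above background on every one of the 4 arrays, up to 5 genes per direction measured in 1 group only, and in each list up to 4 members per direction and the brightest. Other list members, and Phlda1 and Il1f9 beside the threshold, were chosen after their values were seen. A bound sets the bright group's mean against the mean, per dim array, of the higher of the lowest signal well above background and the probe's own signal. Normalization, background correction, filters, probe rules, thresholds and arrays left out in turn were the alternatives.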

Additional observations from a re-analysis of the deposited data

Results flagged for a closer look

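Hlcs, which encodes the ligase that attaches biotin to carboxylases, was over 2-fold higher in set 1 and over 2-fold lower in set 2, with log2 folds of 1.32 and -1.14. Of 5 genes that lay over 2-fold apart in opposite directions it was the one well above background on all 4 arrays. Its signals were -1.05 and -2.83 with Ecrg4(71-132) and -2.38 and -1.69 with Fc, and its second probe gave folds of -0.11 and -1.43. With 1 array per treatment and set, the difference between the sets was not tested.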

How the results depend on the processing

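No gene passed limma's adjusted p of 0.05 with the replicate block either, where the count was 0 and the smallest adjusted p 0.177, and the block changed no call. The count was 0 under each scaling, filter and probe rule run, with 498 to 671 genes at an unadjusted p under 0.05 in these fits without the block, and quantile normalization gave the smallest adjusted p of 0.0724. With 1 array left out the count ran from 0 to 482: it was 482 without the set 1 Ecrg4(71-132) array and 1 without the set 1 Fc array, both with the block, where the lone array of the group is assumed to vary like the others. Genes over 2-fold higher in both sets, 89 as reported, numbered 54 with normexp, 59 with genes well above background on all 8 arrays and 256 at a 1.5-fold threshold. Genes over 2-fold lower, 51 as reported, numbered 3 with normexp, 29 with median scaling, 14 with genes well above background on all 8 or all 4 arrays, 113 with no filter and 273 at 1.5-fold. A filter on all arrays tests fewer genes and no filter tests more, while the cause of the other changes was not tested. Both counts need both sets, so no value exists with an array left out: taken alone, set 1 held 150 genes over 2-fold higher and 188 lower, and set 2 held 805 and 696. Mean folds of genes, and median folds of lists, changed sign as follows: with mean of probes Hlcs -0.34; with quantile normalization Atf3 -0.050, Ccl6 0.017, Il18 -0.032, Mki67 -0.068; with median scaling Ccl6 0.034. They also changed sign with normexp background correction Col1a2 -0.033, Il18 -0.029, FOXO and growth-restraint targets 0.013, with no filter Toll-like receptors and adaptors -0.012, with well above background on all 8 arrays FOXO and growth-restraint targets 0.046, Astrocyte markers -0.00060, with well above background on all 4 arrays FOXO and growth-restraint targets 0.046, Astrocyte markers -0.00060. With 1 array left out, 86 values changed sign without the block, where the groups hold unequal shares of the sets, and 17 with it. With the block these were without Fc array of set 1 Hlcs -0.36; without Ecrg4(71-132) array of set 1 Hlcs -1.10, Atf3 -0.12, Col1a2 -0.064, Gfap -0.41, Il18 -0.020; without Fc array of set 2 Atf3 -0.027, Ccl6 0.14, Col1a2 -0.089, Il18 -0.038, Mki67 -0.056, Toll-like receptors and adaptors -0.010; without Ecrg4(71-132) array of set 2 Ccl6 0.22, Fcgr1 0.18, Mki67 -0.12, Tmem119 -0.11, TGF-beta receptors and SMADs -0.0015. Without it the ranges were -3.48 to 0.41 for Rasgrp3, -0.800 to 0.98 for Hlcs, -0.12 to 1.41 for Abca1, -1.22 to 0.26 for Abcg1, -0.16 to 0.201 for Atf3, -0.49 to 0.44 for Ccl6, -0.51 to 0.97 for Ccl9, -2.17 to 1.82 for Chil3, -3.59 to 3.32 for Col1a1, -3.12 to 3.22 for Col1a2, -2.73 to 4.34 for Cx3cr1, -1.14 to 6.21 for Cxcl10, -2.80 to 3.55 for Dcn, -0.13 to 0.33 for Ebi3, -2.13 to 0.62 for Fcgr1, -0.19 to 0.49 for Fcgr2b, -1.39 to 0.47 for Fos, -1.91 to 0.013 for Fzd4, -3.80 to 3.92 for Gfap, -1.37 to 0.25 for Hpgds, -0.99 to 4.15 for Ifit1, -0.87 to 0.89 for Il18, -2.43 to 0.305 for Il6ra, -0.11 to 4.14 for Irf4, -0.98 to 0.017 for Irf8, -1.26 to 0.56 for Mcm6, -1.64 to 0.47 for Mertk, -0.72 to 0.76 for Mki67, -0.44 to 0.18 for Mrc1, -0.17 to 3.04 for Olr1, -1.60 to 0.52 for P2ry12, -0.24 to 0.801 for P2ry2, -1.79 to 0.26 for Pla2g15, -0.063 to 1.20 for Plaur, -0.053 to 0.35 for Ptges3, -0.14 to 3.49 for Rgs16, -1.15 to 3.86 for Rsad2, -0.020 to 0.53 for S100a8, -0.13 to 2.77 for Slc7a2, -2.28 to 0.67 for Tcf7l2, -1.51 to 0.11 for Tgfbr2, -0.88 to 1.36 for Tmem119, -1.33 to 0.34 for Zfp36l2. For median folds of lists they were -0.699 to 1.48 for Interferon-stimulated genes, -0.25 to 0.17 for Macrophage lineage transcription factors, -0.15 to 0.32 for TGF-beta receptors and SMADs, -0.22 to 0.051 for WNT pathway regulators, -0.56 to 0.18 for Regulators of G-protein signalling, -0.197 to 0.25 for Toll-like receptors and adaptors, -0.23 to 0.17 for FOXO and growth-restraint targets, -0.996 to 0.57 for Cell cycle genes, -1.05 to 2.58 for Astrocyte markers, -1.73 to 3.23 for Fibroblast and meningeal markers. Dim genes, near the lowest signal well above background, have the least certain folds.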

Other observations

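Costimulatory and scavenger receptors, which the text above does not describe, also differed within both sets. Icosl, the ligand of a T-cell costimulator, had 3.31 and 3.55 with Ecrg4(71-132) and 2.88 and 1.09 with Fc, and Cd40 had 1.41 and 1.88 with Ecrg4(71-132) and 0.86 and -0.38 with Fc. Cd80, a costimulatory ligand, lay on the other side, with 2.43 and 2.90 with Ecrg4(71-132) and 2.83 and 4.28 with Fc. Of 18 antigen presentation and costimulation genes 13 were higher in both sets and 2 lower. Olr1, a scavenger receptor for oxidised lipoprotein, had folds of 1.09 and 1.78, and Clec4e, which senses mycobacterial glycolipid, had 0.70 and 2.65. Of 14 scavenger and pattern receptors 6 were higher and 6 lower.

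Irf4, a factor of alternative macrophage activation, had -0.62 and 3.63 with Ecrg4(71-132) and -1.99 and 0.97 with Fc. Of 14 alternative-activation genes tested 5 were higher in both sets and 5 lower. Also higher were Tgm2, with folds of 0.59 and 1.87, and Ccl24, with 0.76 and 0.52. Among the lower, Mrc1 had -0.04 and -0.23 and Chil3 had -0.00 and -0.35. Il6ra, the receptor of interleukin 6, was -0.40 and -1.73, beside the higher Il6 transcript. Cholesterol exporters did not share a direction in set 2, with Abca1 at -0.03 and 1.33 and Abcg1 at -0.19 and -0.78. Lysosomal hydrolase and proton pump genes had medians of 0.01 and -0.09, with 4 of 27 higher in both sets and 9 lower.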
